A study of Homo sapiens with 6 samples.

Results

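The MYC and MAX network was followed in HL-60, an established line of human promyelocytic leukaemia cells. The members were taken by gene symbol, by a rule that uses no measured value but was set with earlier results of these data known. They are MYC, its obligate partner MAX, the MAX-binding antagonists MXD1, MXD3, MXD4, MXI1, MNT and MGA, and the parallel branch of MLX and MLXIP. All 10 were found among the 58302 Ensembl genes of the count tables. The study knocked down OSGEP, which encodes the catalytic subunit of the KEOPS complex that makes the t6A modification of tRNA, to learn its role in acute myeloid leukaemia. The groups were HL-60 cells carrying an OSGEP-directed short hairpin RNA (3 libraries, labelled as knockdown) and HL-60 cells carrying a control hairpin (3 libraries, labelled WT). Both were grown in medium with 20% fetal bovine serum, and stranded mRNA libraries were sequenced.

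MYC is a basic helix-loop-helix leucine zipper factor that binds DNA only as a dimer with MAX, at the E-box CACGTG, and promotes growth and division. MXD factors and MNT compete for MAX and repress the same sites through SIN3 and histone deacetylases, while MGA brings MAX into a Polycomb complex. MLX pairs with MLXIP, also called MondoA, which responds to glucose metabolites, and can also pair with MXD1, MXD4 and MNT. In HL-60 cells, where MYC is amplified, differentiation is known to lower MYC and raise MXD1.

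Total counts per library lay between 8326982 and 10157091. OSGEP itself had 21.2, 23.1 and 20.9 CPM (counts scaled to the normalised size of the library) in OSGEP shRNA libraries 1, 2 and 3, against 49.1, 54.4 and 76.9 CPM in control shRNA libraries 1, 2 and 3. Neither separate cultures nor the number of OSGEP hairpins is stated in the labels, and the p-values therefore measure the spread among these libraries alone, which may be technical. Of the HL-60 myeloid markers, all 9 were tested, 4 fell and 0 rose. The background over all genes tested, here and for the marker lists below, was 5.56% lower and 5.19% higher. Of the 7 erythroid and megakaryocyte markers, 3 had no read in any library, GATA1 and GP9 among them. In that list 1 gene was tested and it was not called. The list summed to 0.939 to 6.17 CPM in OSGEP shRNA libraries and 2.95 to 8.14 CPM in control shRNA libraries. The summed level of the 9 myeloid markers was 1259 to 1333 CPM in OSGEP shRNA libraries and 2964 to 3111 CPM in control shRNA libraries. All 6 proliferation markers were tested, 3 fell and 0 rose. They summed to 1935 to 2089 CPM in OSGEP shRNA libraries and 2482 to 2538 CPM in control shRNA libraries. Of the later granulocyte and monocyte markers, 2 rose (CD14 and S100A9) and 1 fell (CSF3R) of 7 tested, and the 10 summed to 186 to 250 CPM in OSGEP shRNA libraries and 202 to 248 CPM in control shRNA libraries. The 7 lymphoid markers summed to 29.2 to 32.5 CPM in OSGEP shRNA libraries and 84.8 to 99.3 CPM in control shRNA libraries, most of it NKG7, the 1 of 2 tested that fell. Of the epithelial and mesenchymal markers, 1 of 6 tested rose (CDH1), and the 7 summed to 88.8 to 93.8 CPM in OSGEP shRNA libraries and 82.6 to 106 CPM in control shRNA libraries. The part of these differences in the results below was not tested. In bulk libraries, fewer cells of a type and less RNA per cell cannot be told apart.

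All 10 members passed the filter on low counts, and 2 of them, MYC and MXI1, were lower in the OSGEP shRNA cells (edgeR quasi-likelihood test, Benjamini-Hochberg adjusted p under 0.05 over all genes tested). No member was called higher, by edgeR, DESeq2 or limma-voom, although 1 member, MXD1, was higher at an unadjusted edgeR p under 0.05. Across the 14018 genes tested, 10.8% were called in either direction, 5.56% lower and 5.19% higher, so 2 of 10 members is a small count to set against that background. The whole fit called 727 genes higher and 780 lower, and with scaling by library size alone 859 higher and 612 lower. The 2 groups of libraries did not overlap for 5 of the 10 members, against 28.9% of all genes tested. These were MYC, MXI1, MXD3 and MGA, lower in OSGEP shRNA cells, and MXD1, higher there. The median log2 fold change of the members was -0.19, beside 0.01 over all genes tested.

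**Figure D1:**
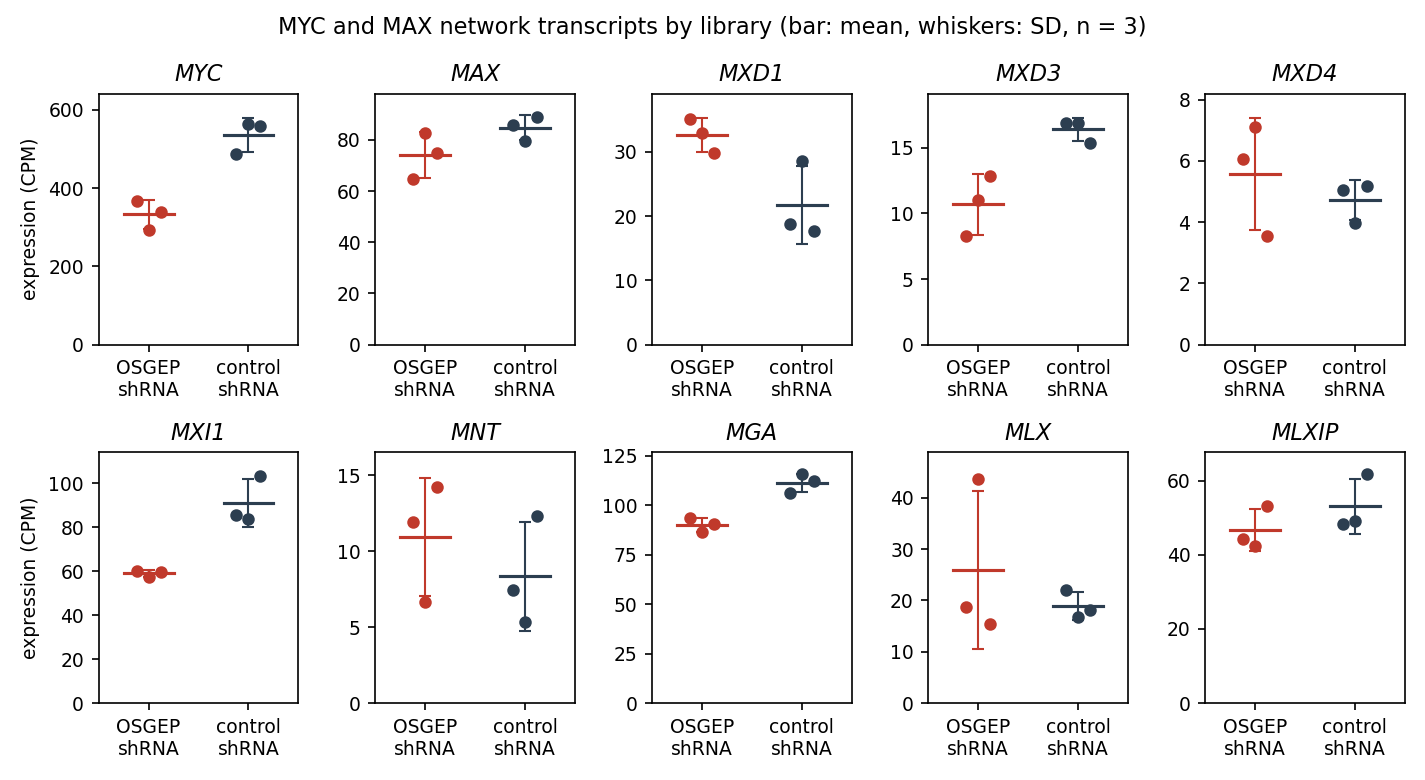
TMM-normalised expression in CPM of the 10 network genes in each library, with OSGEP shRNA libraries (red) left of control shRNA libraries (dark), the mean as a bar and the SD as whiskers (n = 3 each). MYC and MXI1 stand lower in every OSGEP shRNA library, and MLX has 1 OSGEP shRNA library at 43.6 CPM, far above the other 5.

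MYC, the activator of the network, had 367, 292 and 340 CPM in OSGEP shRNA libraries 1, 2 and 3, against 486, 564 and 558 CPM in control shRNA libraries 1, 2 and 3. Every OSGEP shRNA library lay below every control library, and MYC remained abundant in all 6. Its mean was 333 ± 37.8 CPM in OSGEP shRNA cells and 536 ± 43.5 CPM in control shRNA cells (SD, n = 3 each), a ratio of 0.621. The log2 fold change of -0.69 (SE 0.11) had a 95% interval of -0.93 to -0.45 and an edgeR adjusted p of 0.000602. Divided by exon length, MYC ranked 408th, 502nd and 431st among 14000 tested genes in OSGEP shRNA libraries 1, 2 and 3, against 317th, 278th and 283rd in control shRNA libraries 1, 2 and 3. MYC (ENSG00000136997) is annotated on chromosome 8 at 127735434 to 127741434 on the plus strand of GRCh38.

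MAX, the obligate partner of MYC and a partner of the MXD factors, MNT and MGA, was not called. It had 64.7, 82.7 and 74.8 CPM in OSGEP shRNA libraries 1, 2 and 3, against 85.6, 79.5 and 89.1 CPM in control shRNA libraries 1, 2 and 3. The groups overlapped, since OSGEP shRNA library 2 lay above control library 2. The log2 fold change was -0.19 (95% interval -0.51 to 0.13, edgeR adjusted p = 0.514), and the interval holds both no change and a fall. In GRCh38, MAX (ENSG00000125952) occupies positions 65006174 to 65102695 of chromosome 14, minus strand.

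Among the antagonists, MXI1 fell. This MXD family member had 60.1, 57.2 and 59.7 CPM in OSGEP shRNA libraries 1, 2 and 3, against 85.5, 83.7 and 103 CPM in control shRNA libraries 1, 2 and 3. The OSGEP shRNA libraries lay close together and all below the controls. The log2 fold change was -0.62 (SE 0.15, 95% interval -0.94 to -0.30) with an edgeR adjusted p of 0.0135. Its size was close to that of MYC, so that the activator of the network and one of the antagonists were lower together. The MXI1 call was lost without OSGEP shRNA library 3 (log2 fold change -0.62, adjusted p = 0.0589) and without control shRNA library 3 (-0.52, adjusted p = 0.108). In GRCh38, MXI1 (ENSG00000119950) occupies positions 110207605 to 110287365 of chromosome 10, plus strand.

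MXD1, the family member known to rise as myeloid cells mature, pointed the other way without passing the test. It had 35.1, 32.9 and 29.9 CPM in OSGEP shRNA libraries 1, 2 and 3, against 18.8, 28.6 and 17.7 CPM in control shRNA libraries 1, 2 and 3. All OSGEP shRNA libraries lay above all controls, with control library 2 only just below. The log2 fold change of 0.59 (SE 0.25) had a 95% interval of 0.06 to 1.11 and an edgeR adjusted p of 0.162, and it stood at 0.83 without control library 2 (adjusted p = 0.0915). MXD1 (ENSG00000059728) occupies positions 69897688 to 69942945 of chromosome 2, plus strand, and shares 237 bases of exon with SNRNP27 on the same strand.

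MXD3, the family member linked to dividing cells, had 8.24, 11 and 12.8 CPM in OSGEP shRNA libraries 1, 2 and 3, against 16.9, 16.9 and 15.4 CPM in control shRNA libraries 1, 2 and 3. The groups did not overlap, but the log2 fold change of -0.62 had a 95% interval of -1.29 to 0.05 and an edgeR adjusted p of 0.266. Its annotated exons share 926 bases with RAB24 on the same strand and 1158 bases with PRELID1 on the opposite strand, so some of its reads may not be assigned to it. MXD4 was the least expressed member, with 3.56 to 7.12 CPM in OSGEP shRNA libraries and 3.99 to 5.17 CPM in control shRNA libraries. The groups overlapped, and the log2 fold change of 0.24 had a 95% interval from -0.91 to 1.39 (edgeR adjusted p = 0.864).

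MNT, the antagonist found in most cell types, had 11.9, 6.66 and 14.2 CPM in OSGEP shRNA libraries 1, 2 and 3, against 7.42, 5.32 and 12.3 CPM in control shRNA libraries 1, 2 and 3. Library 3 was the highest and library 2 the lowest of each group, and the groups overlapped (log2 fold change 0.39, 95% interval -0.53 to 1.31, edgeR adjusted p = 0.679). MGA, a very large protein that carries both a T-box and a helix-loop-helix zipper, had 93.5, 86.6 and 90.4 CPM in OSGEP shRNA libraries 1, 2 and 3, against 106, 116 and 112 CPM in control shRNA libraries 1, 2 and 3. Its groups did not overlap and scattered little, yet the small log2 fold change of -0.30 (SE 0.13) did not pass (edgeR adjusted p = 0.175).

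In the MLX branch neither member was called. MLX had 18.7, 43.6 and 15.4 CPM in OSGEP shRNA libraries 1, 2 and 3, against 22.1, 16.8 and 18.2 CPM in control shRNA libraries 1, 2 and 3. OSGEP shRNA library 2 stood far above the other 5 libraries and set the sign of the estimate, 0.45 with it and -0.14 without it (edgeR adjusted p = 0.502 and 0.878). PSMC3IP, whose exons overlap those of MLX by 770 bases on the opposite strand, was also highest in that library, with 7.62, 23.8 and 18.2 CPM in OSGEP shRNA libraries 1, 2 and 3 and 7.26 to 11.6 CPM in control shRNA libraries. The strand setting of the counting is not given in the sources used here, and the part of this overlap in the MLX value was not tested. MLXIP had 44.3, 42.4 and 53.3 CPM in OSGEP shRNA libraries 1, 2 and 3, against 48.3, 49.1 and 61.7 CPM in control shRNA libraries 1, 2 and 3 (log2 fold change -0.18, 95% interval -0.57 to 0.20, edgeR adjusted p = 0.632). Its groups overlapped, and library 3 was the highest in both.

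**Figure D2:**
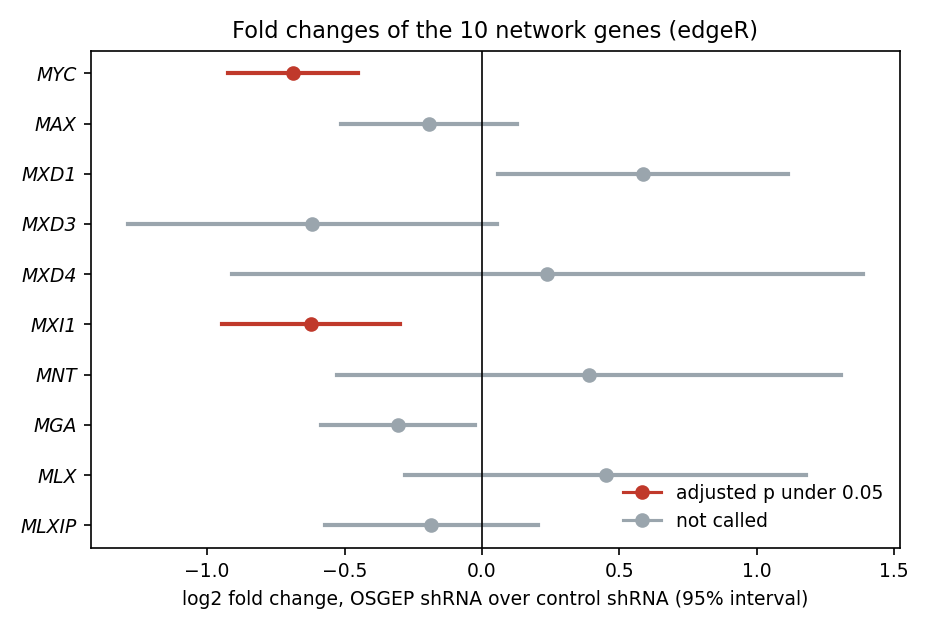
Log2 fold changes of the 10 members (OSGEP shRNA over control shRNA) with 95% intervals from the edgeR fit. MYC and MXI1, in red, are the called members at -0.69 and -0.62, and the intervals of MXD4, MNT and MLX are the widest.

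Levels can be compared between genes once CPM is divided by the kilobases of merged exon, a length that may exceed that of the transcripts in use. On this scale MYC stood at 111 ± 12.6 CPM per kb in OSGEP shRNA cells and 179 ± 14.5 CPM per kb in control shRNA cells (SD, n = 3 each), above every other member in every library. In OSGEP shRNA cells the order below MYC was MAX, MXI1, MLX, MXD1, MGA, MLXIP, MXD3, MNT and MXD4. In control shRNA cells it was MXI1, MAX, MGA, MLX, MLXIP, MXD1, MXD3, MNT and MXD4. Neighbours whose libraries overlapped were MLX with MXD1, MXD1 with MGA, MXD3 with MNT and MNT with MXD4 in OSGEP shRNA cells. In control shRNA cells they were MXI1 with MAX, MLX with MLXIP, MLXIP with MXD1, MXD1 with MXD3 and MNT with MXD4. MAX and MXI1 overlapped in the control libraries but were apart in the OSGEP shRNA libraries, where MAX had 14.6 to 18.7 CPM per kb and MXI1 12.4 to 13.0 CPM per kb.

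The summed level of MXD1, MXD3, MXD4, MXI1 and MNT was 22.4, 21.5 and 22.3 CPM per kb in OSGEP shRNA libraries 1, 2 and 3, against 26.4, 27.1 and 30.4 CPM per kb in control shRNA libraries 1, 2 and 3. The antagonists thus summed to less in OSGEP shRNA cells, as MYC did. Their ratio to MYC was 0.183, 0.221 and 0.197 in OSGEP shRNA libraries 1, 2 and 3, against 0.163, 0.144 and 0.163 in control shRNA libraries 1, 2 and 3. The mean ratio in OSGEP shRNA cells was 1.28 times that in control shRNA cells, given with no test because the members were chosen for this account. MXI1 made up most of the sum, and its own ratio to MYC overlapped between groups, at 0.107 to 0.128 in OSGEP shRNA libraries and 0.0965 to 0.121 in control shRNA libraries. MXD1 relative to MYC was 0.0452, 0.0532 and 0.0416 in OSGEP shRNA libraries 1, 2 and 3. In control shRNA libraries 1, 2 and 3 this ratio was 0.0182, 0.0240 and 0.0150. Its lack of overlap follows from MXD1 lying above, and MYC below, all controls in every OSGEP shRNA library. It is a description, and MXD1 was not called. Among the MXD genes, MXD3 relative to MXD1 was 0.290, 0.412 and 0.528 in OSGEP shRNA libraries 1, 2 and 3, against 1.11, 0.726 and 1.07 in control shRNA libraries 1, 2 and 3. This pair was set side by side after its opposite directions were seen, so the lack of overlap is a description, and neither gene passed the test alone.

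**Figure D3:**
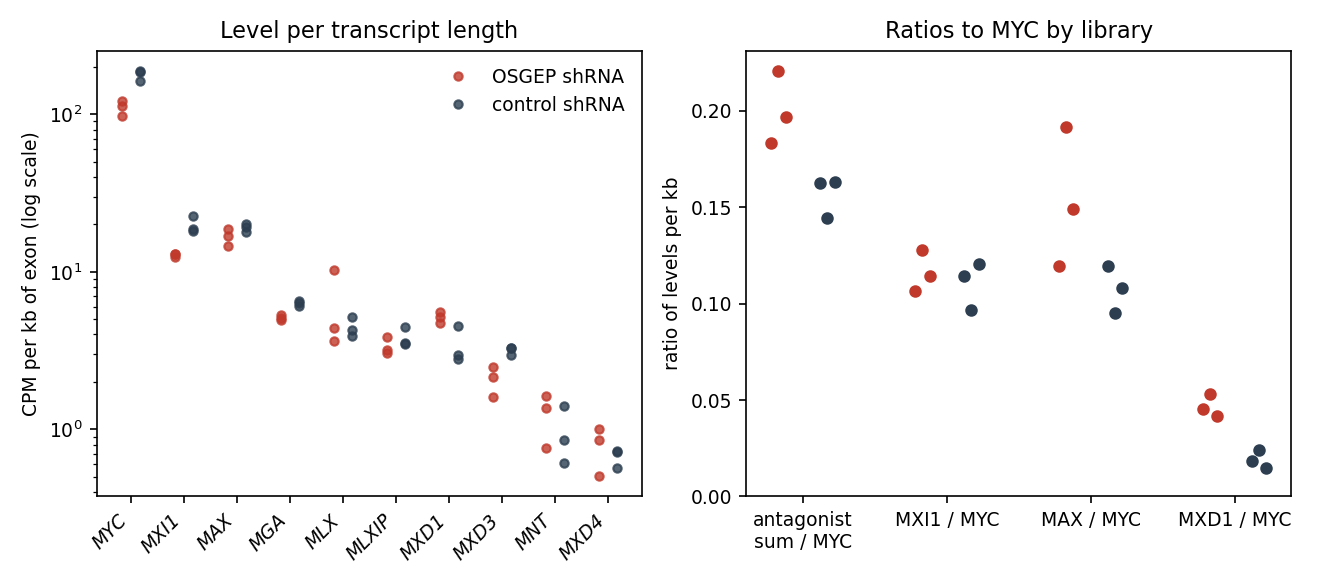
Left, levels per kilobase of exon on a log axis for each member and library, with OSGEP shRNA (red) left of control shRNA (dark); right, per-library ratios of these levels to MYC. The antagonist sum and MXD1 are higher relative to MYC in every OSGEP shRNA library, whereas the MXI1 ratios overlap. For MXD1 this follows from the opposite directions of MXD1 and MYC, and MXD1 was not called.

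Paralogues outside the members were scarce. MYCN had no read in the 6 libraries. MYCL had 1.67 to 2.77 CPM in OSGEP shRNA libraries and 2.89 to 3.89 CPM in control shRNA libraries and was not called (edgeR adjusted p = 0.792). MLXIPL, which encodes the glucose-responsive partner of MLX in liver, stayed below the filter at 0.104 to 0.356 CPM in OSGEP shRNA libraries and 0.412 to 1.74 CPM in control shRNA libraries.

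Within 1 Mb of MYC, 3 other genes were tested, and they are given because of their position and after their values were seen. The long noncoding RNA gene CCDC26 fell to 6.68, 6.93 and 2.14 CPM in OSGEP shRNA libraries 1, 2 and 3, against 41.9, 56.9 and 25.1 CPM in control shRNA libraries 1, 2 and 3 (log2 fold change -2.96, SE 0.40, with edgeR adjusted p = 0.000109). The fall of this neighbour was deeper than that of MYC and left no overlap between groups. PVT1, the long noncoding RNA gene next to MYC, had 35.4, 25.2 and 19.0 CPM in OSGEP shRNA libraries 1, 2 and 3 and 47.4, 41.6 and 37.4 CPM in control shRNA libraries 1, 2 and 3. Its log2 fold change of -0.67 (SE 0.24) was close to that of MYC but was not called (edgeR adjusted p = 0.0956), except without OSGEP shRNA library 1 (-0.93, adjusted p = 0.0177). CASC11 was too low to place, at 0.555 to 2.61 CPM in OSGEP shRNA libraries and 1.55 to 5.05 CPM in control shRNA libraries (edgeR adjusted p = 0.60).

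Proteins that the network works with were mostly not called. Of 18 SIN3 and histone deacetylase corepressor genes, which MXD factors recruit, 1 rose and 0 fell by edgeR (median log2 fold change -0.17). Of all genes, edgeR called 5.19% higher and 5.56% lower, so 1 of 18 is near that share. At an unadjusted p under 0.05, a threshold those shares do not cover, 4 were lower. DESeq2 called 0 lower and limma-voom 1. The rise was that of SIN3B, a scaffold of the complex, at 63.8, 57.9 and 74.4 CPM in OSGEP shRNA libraries 1, 2 and 3 and 39.9, 39.9 and 29.4 CPM in control shRNA libraries 1, 2 and 3 (log2 fold change 0.84, SE 0.19, edgeR adjusted p = 0.00762). SIN3A, its paralogue, was not called, at 56.9 ± 5.14 CPM in OSGEP shRNA cells and 67.7 ± 10.7 CPM in control shRNA cells (-0.25, edgeR adjusted p = 0.431). Of 13 genes of the Polycomb complex that MGA joins, 2 fell and 0 rose, with 0 higher also at an unadjusted p under 0.05, by DESeq2 and by limma-voom. The background over all genes tested, here and for the lists below, was 5.56% lower and 5.19% higher. L3MBTL2, a chromatin reader, fell by 0.74 (SE 0.21) and TFDP1, a partner of E2F factors, fell by 0.36 (SE 0.10). Of 17 MYC coactivators and partners, edgeR, DESeq2 and limma-voom each called 0, and 1 was lower at an unadjusted edgeR p under 0.05. HCFC1 and BPTF, highest of these in CPM before division by exon length, had 149 ± 5.53 and 152 ± 6.73 CPM in OSGEP shRNA cells, against 178 ± 5.57 and 162 ± 5.27 CPM in control shRNA cells.

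Of the factors that set the stability of MYC protein, edgeR called 2 higher and 1 lower of 16 tested, against 5.19% higher and 5.56% lower of all genes, and limma-voom called 1 higher and 1 lower. TRIM32 was below the filter. FBXO32, an F-box subunit of a ubiquitin ligase, rose by 1.83 on the log2 scale (SE 0.55, edgeR adjusted p = 0.0439). PPP2R5A, a subunit that directs the phosphatase PP2A to MYC, rose by 0.50 (SE 0.13, adjusted p = 0.0210), and SKP2, another F-box protein that acts on MYC, fell by 0.69 (SE 0.18, edgeR adjusted p = 0.0197). FBXW7, the main F-box receptor for phosphorylated MYC, was not called, at 29.3 ± 9.12 CPM in OSGEP shRNA cells and 39.4 ± 6.48 CPM in control shRNA cells (edgeR adjusted p = 0.333). Of 16 tested regulators of MYC transcription or mRNA, 1 fell and 0 rose, with 0 higher at an unadjusted p under 0.05, by DESeq2 or by limma-voom. The fall was that of MYB, the progenitor transcription factor, at 46.9, 74.1 and 68.4 CPM in OSGEP shRNA libraries 1, 2 and 3 and 159, 181 and 157 CPM in control shRNA libraries 1, 2 and 3. FBXO32 was not called by limma-voom (1.69, adjusted p = 0.122) and stood at 1.22 without OSGEP shRNA library 1 (adjusted p = 0.288). SIN3B was lost without OSGEP shRNA library 3 (0.75) or control library 3 (0.71), SKP2 without OSGEP shRNA library 3 (-0.66), control 2 (-0.62) or control 3 (-0.62), and L3MBTL2 (-0.88 to -0.49), TFDP1 (-0.42 to -0.28), FBXO32 (1.22 to 2.13) and PPP2R5A (0.45 to 0.58) in 4 or 5 of the 6 fits that left out 1 library.

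Of the 57 genes that MYC is known to activate in the hallmark version 2 list, 5 fell and 0 rose by edgeR, with 13 lower and 0 higher at an unadjusted p under 0.05 and 5 lower and 0 higher by both DESeq2 and limma-voom. The background over all genes tested was 5.56% lower and 5.19% higher by edgeR at an adjusted p under 0.05. No share of all genes was taken at an unadjusted p, so the 13 and 0 cannot be set against this background. In this list 36 fold changes lay below 0 and 21 above, with a median of -0.11. TMEM97, a sterol-regulated receptor, fell to 121 ± 11.1 CPM in OSGEP shRNA cells, against 240 ± 24.5 CPM in control shRNA cells (-0.99, SE 0.13). MCM4, a subunit of the replicative helicase, fell to 254 ± 43.3 CPM in OSGEP shRNA cells, against 434 ± 23.7 CPM in control shRNA cells (-0.77, SE 0.12). EXOSC5, a subunit of the RNA exosome, fell by 0.77 (SE 0.18) and the nucleoside transporter gene SLC29A2 by 1.48 (SE 0.20). DDX18, an RNA helicase of ribosome assembly outside the naming rule, was the remaining call and fell by 0.55 (SE 0.14). NPM1, the nucleolar chaperone, was not called, at 1925 ± 214 CPM in OSGEP shRNA cells and 2114 ± 117 CPM in control shRNA cells (-0.14, edgeR adjusted p = 0.431). EXOSC5 lost its call without OSGEP shRNA library 3 (-0.63) or control library 2 (-0.70), and DDX18 without OSGEP shRNA library 2 (-0.45), OSGEP shRNA library 3 (-0.52), control 2 (-0.46) or control 3 (-0.53).

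Of 28 other textbook targets, 3 fell and 1 rose, against 5.56% lower and 5.19% higher of all genes, with a median of -0.14. At an unadjusted edgeR p under 0.05, 6 were lower and 2 higher, a threshold that the shares of all genes do not cover. In this list 22 fold changes lay below 0 and 6 above. CDCA7, a MYC-responsive chromatin gene of cycling cells, fell to 135, 110 and 113 CPM in OSGEP shRNA libraries 1, 2 and 3, against 254, 321 and 309 CPM in control shRNA libraries 1, 2 and 3 (log2 fold change -1.30, SE 0.13, with edgeR adjusted p = 6.19e-06). PTMA, which encodes the abundant nuclear protein prothymosin alpha, fell by 0.56 (SE 0.08), and LDHA, which makes lactate from pyruvate, fell by 0.51 (SE 0.10). SLC3A2, the shared heavy chain of amino acid transporters, went against them and rose by 1.01 on the log2 scale (SE 0.11). Nucleolin, encoded by NCL, was not called, at 874 ± 25.2 CPM in OSGEP shRNA cells and 957 ± 54.2 CPM in control shRNA cells.

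Of the genes that MYC is known to repress, 4 rose and 2 fell of the 11 tested, against 5.19% higher and 5.56% lower of all genes, and 3 were below the filter. At an unadjusted p under 0.05, 7 were higher and 2 lower. The shares of all genes are for edgeR at an adjusted p and cannot be set beside these 7 and 2. DESeq2 called 5 higher and 2 lower, and 8 of the 11 fold changes lay above 0 (median 0.95). The largest log2 fold change of the list, 4.96, belonged to a gene that edgeR did not call. BTG2, CDKN1A and FTH1, which encode an antiproliferative protein, the CDK inhibitor p21 and ferritin heavy chain, rose by 1.89, 1.78 and 1.49 on the log2 scale. The remaining calls, outside the naming rule, were the stress genes GADD45A, which rose by 0.56, and GADD45B, which fell by 0.80. GADD45A lost its call in 4 of the 6 fits that left out 1 library (0.38 to 0.67) and GADD45B in 5 (-1.02 to -0.66). NDRG1, a gene induced by hypoxia and differentiation, fell to 13.6 ± 1.92 CPM in OSGEP shRNA cells, against 53.3 ± 4.53 CPM in control shRNA cells (-1.97, SE 0.22). Reads of FTH1 may be shared with its processed pseudogenes, so its value is uncertain.

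All 7 tested targets of the MLX branch had negative fold changes (median -0.78, against 0.01 over all genes tested). By edgeR 3 of them fell, against 5.56% lower and 5.19% higher of all genes, and 1 to 3 fell when 1 library was left out. The count higher was 0 by edgeR, at an unadjusted p under 0.05, by DESeq2 and by limma-voom. TXNIP, the arrestin-domain protein that restrains glucose uptake and the best known MLXIP target, had 118, 93.0 and 118 CPM in OSGEP shRNA libraries 1, 2 and 3, against 175, 195 and 194 CPM in control shRNA libraries 1, 2 and 3. The groups were clearly apart (log2 fold change -0.78, SE 0.13, edgeR adjusted p = 0.00104), although neither MLX nor MLXIP was called. Its relative ARRDC4 had 6.26, 3.24 and 4.15 CPM in OSGEP shRNA libraries 1, 2 and 3, against 19.0, 14.8 and 11.2 CPM in control shRNA libraries 1, 2 and 3 (-1.72, SE 0.41, edgeR adjusted p = 0.0116). SLC2A1, the glucose transporter GLUT1, fell to 31.7, 14.1 and 28.0 CPM in OSGEP shRNA libraries 1, 2 and 3, against 49.7, 53.8 and 43.3 CPM in control shRNA libraries 1, 2 and 3 (fell by 0.996 on the log2 scale, SE 0.26). HK2, which phosphorylates glucose, was not called, at 91.6 ± 15.5 CPM in OSGEP shRNA cells and 98.2 ± 16.6 CPM in control shRNA cells. The SLC2A1 call was kept in 1 of the 6 fits that left out a library (-1.23 without OSGEP shRNA library 1), and stood at -0.70 without OSGEP shRNA library 2. ARRDC4 lost its call without OSGEP shRNA library 3 (-1.65) or control library 1 (-1.52).

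Among 13 other helix-loop-helix factors that bind E-boxes, 3 rose and 1 fell, against 5.19% higher and 5.56% lower of all genes. BHLHE41, a circadian repressor, rose to 55.3 ± 10.6 CPM in OSGEP shRNA cells, against 3.27 ± 1.82 CPM in control shRNA cells (log2 fold change 4.10, SE 0.35, edgeR adjusted p = 1.02e-06). TFEC and TFEB, relatives of MITF, rose by 1.64 and 0.81 on the log2 scale, and SREBF1, which drives fatty acid synthesis, fell by 1.21. USF1 and USF2, which bind CACGTG as MYC does, were not called, at 0.64 and 0.25 (edgeR adjusted p = 0.437 and 0.293). TFEB lost its call without control library 1 (0.75) or control library 3 (0.74), and SREBF1 without OSGEP shRNA library 3 (-1.17), control 1 (-1.04) or control 2 (-1.24).

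**Figure D4:**
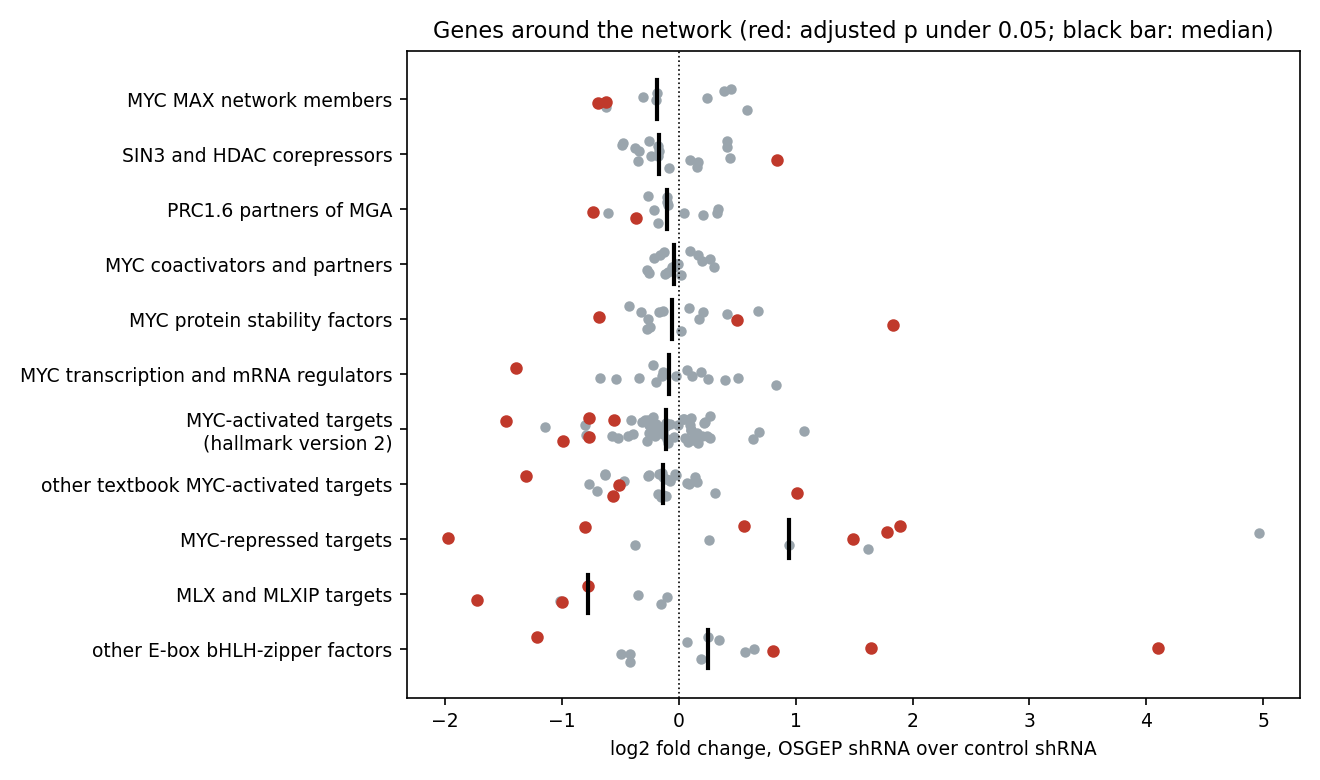
Log2 fold changes (OSGEP shRNA over control shRNA) of every tested gene in 11 lists around the network, with called genes in red and the median of each list as a black bar. The MLX and MLXIP targets have the lowest median, -0.78, and the medians of the lists of MYC-activated targets are -0.11 and -0.14.

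Promoter sequences were read to see which genes carry the network's own binding word. RefSeq windows on GRCh38.p14, from 250 bases before to 50 bases after each gene start, were held for 9 of the 10 members. MYC itself had no window. The E-box CACGTG, which reads the same on both strands, occurred in 7.26% of 35116 windows and in at least 1 window of 8.77% of 27305 genes. Among the members it occurred for MXD4, MNT and MLX, none of which was called. The windows of MXI1, MXD1, MXD3, MGA, MAX and MLXIP did not hold these letters. The share was 53.2% of the 47 hallmark targets with a window, 10 of 20 other textbook targets and 57.1% of 7 MLX branch targets. Shares of calls were close with and without this word: 5.82% of 1238 tested genes with CACGTG fell and 5.82% rose, against 5.89% and 5.72% of 8318 tested genes without it.

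Stretches of 60 bases around the word are shown for the members that hold it and for called targets, 5′ to 3′ on the strand of the gene, with CACGTG in capitals. In TXNIP the capitals mark both copies of a paired motif, CACGNG repeated after a gap of 5 bases and searched on both strands, the layout through which MLX dimers are known to act. The paired motif occurred in 0.0570% of all windows and, among the lists, in TXNIP alone.
MXD4: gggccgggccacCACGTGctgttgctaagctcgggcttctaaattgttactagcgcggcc
MNT: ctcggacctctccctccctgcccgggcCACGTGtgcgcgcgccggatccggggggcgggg
MLX: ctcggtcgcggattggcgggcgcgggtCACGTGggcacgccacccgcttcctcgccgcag
TXNIP: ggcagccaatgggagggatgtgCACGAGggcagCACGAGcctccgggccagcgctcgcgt
ARRDC4: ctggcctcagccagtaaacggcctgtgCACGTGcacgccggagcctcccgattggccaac
EXOSC5: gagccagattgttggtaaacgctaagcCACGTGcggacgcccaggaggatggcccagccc
LDHA: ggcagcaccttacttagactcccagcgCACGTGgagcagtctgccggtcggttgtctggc
The stretches lie at chr4:2262300-2262359 (minus strand) for MXD4, chr17:2401221-2401280 (minus) for MNT, chr17:42567023-42567082 (plus) for MLX, chr1:145996630-145996689 (minus) for TXNIP, chr15:97960466-97960525 (plus) for ARRDC4, chr19:41397416-41397475 (minus) for EXOSC5 and chr11:18394351-18394410 (plus) for LDHA. A match is a description of the letters and was not tested for binding.

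The genes whose course over the 6 libraries was closest to that of a member were taken by the root mean square difference of centred log2 CPM among 6719 genes with a mean of at least 20 CPM. With 6 libraries in 2 groups, such likeness is a description. For MYC they were ZNF318, a zinc finger gene (difference 0.045, Pearson r = 0.99), TXNIP (0.063, r = 0.99) and PHF10, a subunit of a chromatin remodeller (0.063, r = 0.99). ZNF318 had 96.3, 73.1 and 80.5 CPM in OSGEP shRNA libraries 1, 2 and 3, against 125, 145 and 142 CPM in control shRNA libraries 1, 2 and 3. OSGEP shRNA library 2 was the lowest and control library 1 the lowest of its group for ZNF318, TXNIP and PHF10, as they were for MYC. For MAX they were WASF2, an actin regulator (0.035), ARID4A, a subunit of the SIN3 complex (0.044), and the processed pseudogene ERP29P1 (0.048). For MXD1 they were UBE3B, a ubiquitin ligase (0.089), GUF1, a mitochondrial translation factor (0.106), and SERPINB6, a protease inhibitor (0.115). GUF1 was the called one of these, with a log2 fold change of 0.62 (edgeR adjusted p = 0.0120), and that call was lost without control library 1 (0.55) or control library 3 (0.56).

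**Figure D5:**
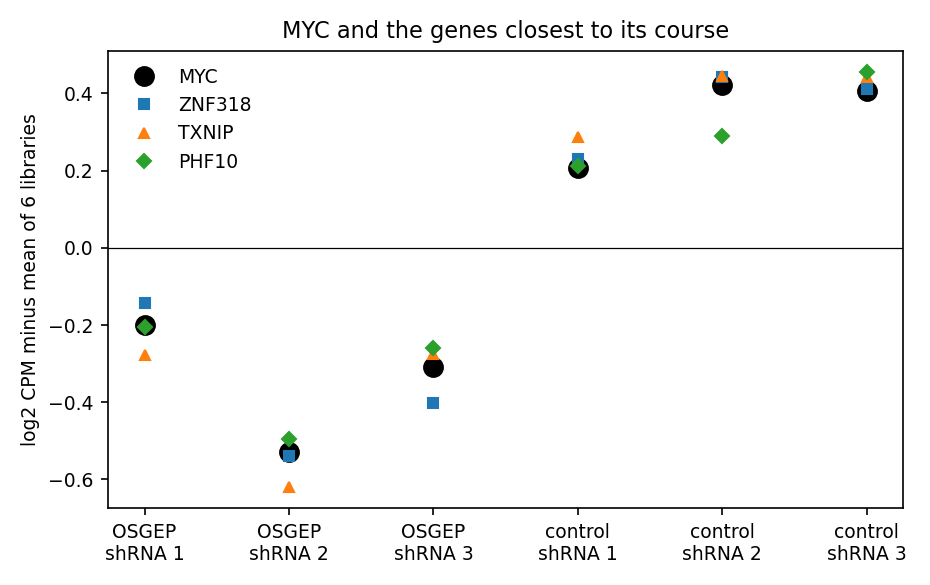
Centred log2 CPM of MYC (black) and of ZNF318, TXNIP and PHF10 in the 6 libraries, OSGEP shRNA left and control shRNA right. All stand lowest in OSGEP shRNA library 2, and within the controls lowest in library 1.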

How the data were processed

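RNA from HL-60 cells was sequenced as stranded mRNA libraries with paired-end reads, per the labels' protocols. The deposited values are raw read counts for each Ensembl gene, held in a table for every library. HISAT2 2.1.0 and featureCounts 1.6.3 are named in the submitters' processing notes, with no settings. The strand setting and annotation release were not given in the sources used here. Symbols, positions and exon lengths came from GENCODE 29, which holds 58039 of the 58302 identifiers, with symbols updated from a table that holds 57532.

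Groups came from the sample titles. Counts were tested with edgeR 4.0.16 in R 4.3.3 (quasi-likelihood F test, TMM, group alone, two-sided) on the 14018 genes kept by filterByExpr (minimum count 10, minimum total 15), with Benjamini-Hochberg adjustment and a threshold of 0.05. Standard errors and intervals were computed from the fold change, its F statistic and the fit's degrees of freedom, and CPM are TMM-normalised. The steps were tested on simulated counts. DESeq2 1.42.0, limma 3.58.1 and the other alternatives named in the closing section were run on the same counts.

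The members and lists were chosen with earlier results of these data known. The hallmark list was written from knowledge of it, with MYC left out, and HK2, CBX3 and WDR5 stand in 2 lists each. Genes named are OSGEP, the members, up to 4 called genes per list with a mean CPM of at least 5 (or, with none called, the 2 most abundant), and the 3 genes closest to MYC, MAX and MXD1. A few further genes were named after their values were seen, as paralogues, overlapping genes, neighbours or members of the lists set beside a called gene. Libraries of a group differed by more than counting noise, with a chi-square per degree of freedom of 10.5 to 25.6.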

Additional observations from a re-analysis of the deposited data

How the results depend on the processing

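MYC kept its direction and its call in all 13 alternative fits, with log2 fold changes from -0.77 to -0.59. MXI1 kept its call in 11 of 13 and its direction in all, from -0.68 to -0.52. No alternative called any of the other 8 members. Leaving out 1 library at a time gave 870 to 1624 called genes in all, 445 to 726 higher and 423 to 898 lower, and 1 or 2 called members. The counts were lowest without control library 3 (870 in all), control library 2 (890) and OSGEP shRNA library 3 (941), which were over 1.5 times below 1507. An adjusted p threshold of 0.01 gave 823 called genes, 400 higher and 423 lower, and 1 called member, MYC. With the replicate number as a block, 1072 genes and 2 members were called. Same-numbered libraries of the 2 groups did not deviate together (correlations of -0.116, -0.062 and -0.037), so the numbers were not taken as pairs. Of the other genes named, PPP2R5A (adjusted p = 0.0626), TFDP1 (adjusted p = 0.0999), FBXO32 (adjusted p = 0.120), DDX18 (adjusted p = 0.0676), GADD45A (adjusted p = 0.0926) and GADD45B (adjusted p = 0.0538) lost their edgeR calls under the block. Leaving out 1 library gave 3 to 5 lower hallmark targets, 1 to 3 lower MLX branch targets, 3 or 4 higher and 1 or 2 lower MYC-repressed genes, 0 to 2 higher and 0 or 1 lower stability factors, 0 or 1 lower Polycomb partners, 0 or 1 higher corepressors and 1 to 3 lower regulators of MYC. It also gave 2 to 4 higher and 0 or 1 lower helix-loop-helix factors. With scaling by library size alone there was 1 lower Polycomb partner, 1 lower MYC-repressed gene and no lower helix-loop-helix factor, and 2 other textbook targets were higher, as by DESeq2. The ratio of antagonists to MYC in OSGEP shRNA cells over that in control shRNA cells ran from 1.21 to 1.33 when 1 library was left out, and was 1.35 without division by length, 1.28 with MGA and 1.25 without MNT. The intervals of MXD4, MNT, MLX and MXD3 are wide. The cause of the lost calls was not tested.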
